A study of Mus musculus with 3 samples.

Results

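Cytotoxic lymphocytes kill by releasing granules, or by presenting a death ligand, at the contact with another cell. Perforin, the product of Prf1, makes pores through which the serine proteases called granzymes (Gzma, Gzmb and Gzmk) enter. Nkg7 encodes a membrane protein of cytotoxic granules, Ctsw the cysteine protease cathepsin W, and Serpinb9 an inhibitor of granzyme B that protects the killer cell itself. Fas ligand, encoded by Fasl, acts through a death receptor, and Ifng encodes interferon-γ. In the lung, natural killer (NK) cells carry transcripts of this machinery without prior activation, whereas T cells acquire most of them after they meet antigen.

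These 9 genes were matched by symbol among the 32285 genes counted in each of 3 single-cell libraries, and each symbol was found once. The labels give C57BL/6J as the strain of every sample. Naive left lungs had no surgery. For the other libraries, a CD45.2 left lung was kept for 60 minutes at 4 °C and 45 minutes at 28 °C, placed into a congenic CD45.1 recipient, and reperfused for 2 hours or 3 days. Cells of 2 mice were pooled for every library, and by the study's description CD45.1 cells, which in a transplant are the recipient's, were sorted. The same sort is given for the naive lungs, which hold no recipient. With 1 library per condition there was no test across mice, and a difference between libraries cannot be told apart from one between mice, preparations or sorts.

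The filters of the study's methods kept 2422 naive cells, 10283 cells at 2 hours and 8324 at 3 days. Unique molecular identifiers (UMIs, one for each captured transcript) had a median of 7298.5, 878 and 5716.5 per kept cell, so the 2-hour library was the shallowest by far. Between 1 and 23 cell barcodes were shared by any pair of libraries. Levels below are UMIs of a gene per 1000000 UMIs of the same cells (CPM). Where 3 values follow each other, their order is naive, 2 hours and 3 days. The 95% intervals, exact Poisson for levels and exact conditional ones for ratios, cover counting error only.

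NK cells were those with at least 1 UMI of Ncr1, Klrb1c or Klre1 and none of Cd3e. This gate held 565 naive cells, 566 cells at 2 hours and 486 at 3 days, with median UMIs of 7677, 829.5 and 5523.5. Exactly 1 gate UMI was found in 44 naive cells (7.79%), 312 at 2 hours (55.1%) and 145 at 3 days (29.8%). Its content differed between the libraries. At 3 days, 240 of its cells (49.4%) carried 2 or more UMIs of the marker list for B cells, neutrophils, monocytes or macrophages, or basophils or mast cells, against 70 naive cells (12.4%) and 53 cells at 2 hours (9.36%). At 3 days, 158 of the gated cells reached that number for the neutrophil list alone. S100a8, an abundant neutrophil transcript, stood at 5057, 4243 and 6210 CPM in the cells with other-lineage UMIs. Scrublet called 5 of those 70 naive cells, 37 of the 53 at 2 hours and 34 of the 240 at 3 days doublets.

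Gzma was rarer in those cells. It had a median of 97.5 UMIs per 10000 in the naive gated cells without other-lineage UMIs and 1.60 in those with them. At 2 hours the medians were 76.9 and 29.4, and at 3 days they were 98.1 and 0, with no Gzma UMI in 136 of the 240 cells. NK levels and their ratios are therefore given for the whole gate and for its cells without other-lineage UMIs, called restricted NK cells here and numbering 495, 513 and 246. Co-detection, the spread among cells and related genes are given for restricted NK cells. This restriction was chosen after the data had been seen, and its count of UMIs catches fewer cells in a shallow library. Restricted NK cells with no UMI of any of the 9 genes numbered 3, 12 and 5. Those with no UMI of 6 other NK genes (Klra4, Klra8, Klra9, Klrd1, Eomes and Itga2) numbered 3, 121 and 5. In the whole gate 28, 136 and 126 cells had no UMI of these 6 genes. At 3 days those 126 cells had Gzma at 10.5 CPM and S100a8 at 8858 CPM, so whole-gate levels include cells with little sign of being NK cells. With at least 2 gate UMIs required of restricted NK cells (483, 229 and 235 cells), 6 of 9 ratios of 2 hours to naive left the interval of the whole-gate value. Without that requirement 0 did.

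**Figure D1:**
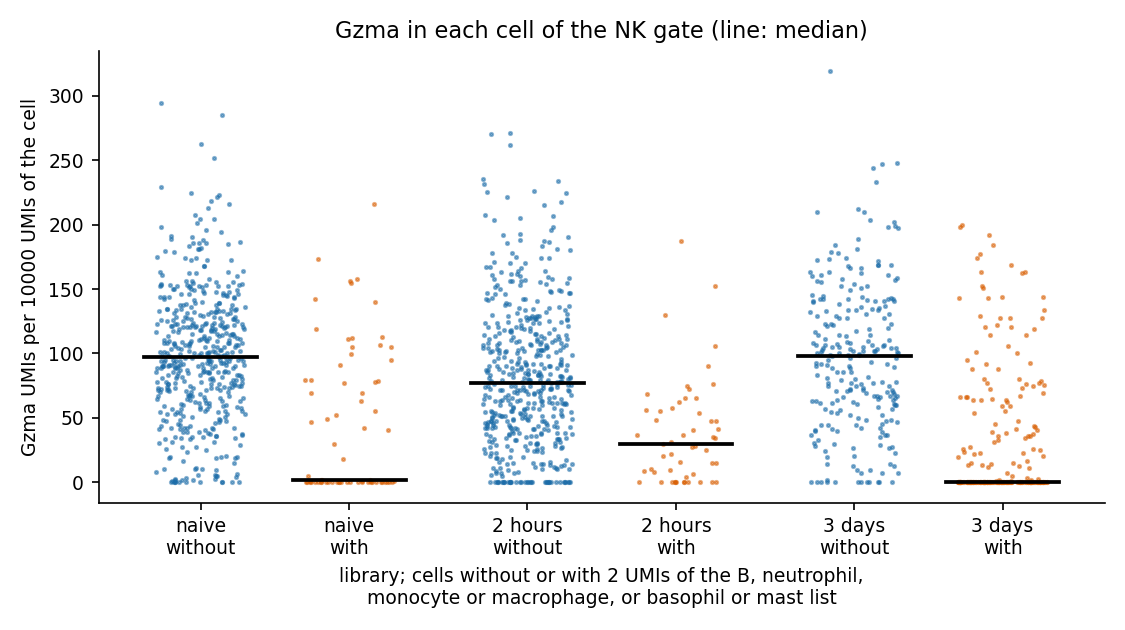
Gzma UMIs per 10000 UMIs of the cell (y axis) for each cell of the NK gate, by library and by whether it had 2 or more UMIs of another lineage's list (x axis). Points are cells and lines are medians, which stood at 98.1 without and 0 with other-lineage UMIs at 3 days.

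The genes lie on several chromosomes of GRCm38 (GENCODE vM21). Gzma and Gzmk are both on the minus strand of chromosome 13, at 113093825-113100981 and 113171608-113225908, and Serpinb9 is on its plus strand at 33003250-33017957. Prf1 (61297833-61304680) and Ifng (118441046-118445892) are on the plus strand of chromosome 10. Gzmb is on the minus strand of chromosome 14 at 56258838-56262260, and Nkg7 on the plus strand of chromosome 7 at 43437073-43438249. Fasl is on the minus strand of chromosome 1 at 161780689-161788495, and Ctsw on the minus strand of chromosome 19 at 5465043-5468507.

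RefSeq promoters on GRCm38.p6, from 250 bases before to 50 after the gene's start, were found for 8 of the 9 genes, all but Ctsw. RefSeq's start can differ from the GENCODE end printed above: for Gzmk it lies inside the longer GENCODE gene, and for Gzmb outside it. The 3 granzymes and Prf1 are shown because their transcripts were placed differently over the cell classes described next. Capitals mark matches, on either strand, to letters bound by families of factors known in cytotoxic lymphocytes: T-box (AGGTGTNA), Runx (TGTGGT), Ets (CAGGAAG), AP-1 (TGANTCA) and STAT (TTCNNNGAA). The Gzma promoter is chr13:113100932-113101231 (minus strand), the Gzmb promoter chr14:56262285-56262584 (minus), the Gzmk promoter chr13:113180916-113181215 (minus) and the Prf1 promoter chr10:61297586-61297885 (plus).
Gzma: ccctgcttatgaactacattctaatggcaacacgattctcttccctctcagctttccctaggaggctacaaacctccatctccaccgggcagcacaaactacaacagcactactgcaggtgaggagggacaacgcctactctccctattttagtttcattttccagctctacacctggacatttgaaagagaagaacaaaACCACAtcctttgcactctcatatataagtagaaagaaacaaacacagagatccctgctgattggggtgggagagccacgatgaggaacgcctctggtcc
Gzmb: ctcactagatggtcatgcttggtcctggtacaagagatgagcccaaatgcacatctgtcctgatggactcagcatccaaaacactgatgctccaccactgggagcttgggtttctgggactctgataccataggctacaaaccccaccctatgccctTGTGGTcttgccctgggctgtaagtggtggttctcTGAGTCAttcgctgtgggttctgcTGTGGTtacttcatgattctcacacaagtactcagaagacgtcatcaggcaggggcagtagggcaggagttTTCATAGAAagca
Gzmk: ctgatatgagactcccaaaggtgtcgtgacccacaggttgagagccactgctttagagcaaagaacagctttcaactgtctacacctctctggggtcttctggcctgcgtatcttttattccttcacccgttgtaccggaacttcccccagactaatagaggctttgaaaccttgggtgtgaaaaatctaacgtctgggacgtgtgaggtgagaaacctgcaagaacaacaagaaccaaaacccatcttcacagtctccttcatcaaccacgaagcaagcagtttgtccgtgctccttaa
Prf1: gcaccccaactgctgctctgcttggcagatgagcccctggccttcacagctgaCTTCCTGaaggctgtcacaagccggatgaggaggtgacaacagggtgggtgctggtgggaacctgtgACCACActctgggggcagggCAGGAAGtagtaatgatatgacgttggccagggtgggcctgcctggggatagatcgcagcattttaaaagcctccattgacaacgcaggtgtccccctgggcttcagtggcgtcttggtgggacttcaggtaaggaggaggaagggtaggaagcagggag

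Gzma held 1 Runx match. Gzmb, the granzyme found in both NK cells and basophils, held 2 Runx matches, 1 AP-1 match and 1 STAT match, while Gzmk held none of the 5 motifs. Prf1 held 1 Runx match and 2 Ets matches. Of the promoters not shown, Nkg7 held 1 match each of T-box, Runx, Ets and STAT, Serpinb9 1 Runx and 1 Ets match, Fasl 1 Ets match and Ifng 1 STAT match. Among all 27025 promoters of the table, 3.03% held the T-box letters, 16.9% Runx, 13.0% Ets, 7.93% AP-1 and 8.47% STAT. No binding was measured in these libraries.

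The first question was which cells held these transcripts. In the naive library, the NK gate held most UMIs of 8 of the 9 genes, from 96.7% of the 42854 Gzma UMIs in kept cells and 94.3% of the 5420 Prf1 UMIs to 77.5% of the 231 Ifng UMIs. Gzmk was placed otherwise. CD8 T cells held 60.6% of its 66 naive UMIs and 74.8% of its 119 UMIs at 3 days, when the NK gate held 0.840%. At 2 hours, on only 27 UMIs, the NK gate held 33.3%, cells in no class 29.6% and CD8 T cells 18.5%. Gzmb was split at 3 days between the NK gate, with 31.1% of 6320 UMIs, and the basophil or mast gate, with 52.5%.

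CD8 T cells, defined by Cd3e with Cd8a or Cd8b1 and no Cd4, held 26.0% of Nkg7 and 37.3% of Ctsw UMIs at 3 days. In the naive library these shares were 7.46% and 14.7%. CD8 T cells with a UMI of an NK gate gene, counted below, were part of these shares. A share depends on how many cells of a class were sorted as well as on their content, and the NK gate was 23.3% of kept naive cells, 5.50% at 2 hours and 5.84% at 3 days. Even so, 5.84% of the 3-day cells held 89.97% of the 19344 Gzma UMIs and 80.5% of the 3347 Prf1 UMIs.

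At 2 hours the gates placed fewer UMIs. Cells in no class held 29.8% of the 5832 Gzma UMIs there, and between 19.1% and 43.5% of the UMIs of each gene. They were 32.5% of kept cells at 2 hours, against 5.74% in the naive library and 7.36% at 3 days. Among these 3337 unassigned cells, 231 (6.92%) carried 3 or more of the 9 genes, and they held 1448 of the 1737 Gzma UMIs of unassigned cells. Their median was 771 UMIs per cell, and 165 of them had a UMI of another NK gene. In the naive and 3-day libraries 2 unassigned cells each carried 3 or more of the 9 genes. The part of depth in this was not tested.

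**Figure D2:**
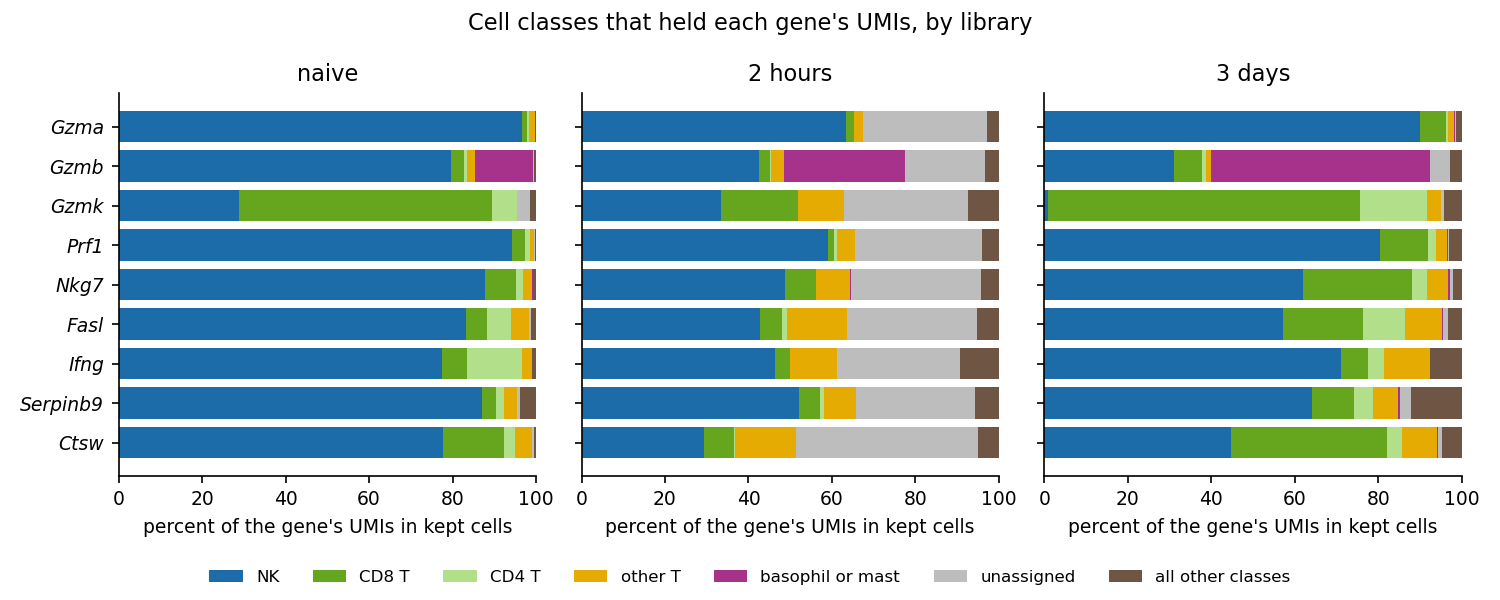
Percent of each gene's UMIs in kept cells (x axis) held by each cell class, one panel per library and one bar per gene. The NK gate took 96.7% of naive Gzma UMIs, CD8 T cells took 74.8% of Gzmk UMIs at 3 days, and the basophil or mast gate took 52.5% of Gzmb UMIs at 3 days.

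By level, restricted NK cells stood above CD8 T cells for 8 of the 9 genes in all 3 libraries, Gzmk being the exception. CD8 T cells were freed of other-lineage UMIs by the B, neutrophil, and monocyte or macrophage lists. The basophil or mast list was not applied to T cells, here or below. Against these CD8 T cells, Gzma was 58.0-fold higher in naive NK cells (95% interval 52.3 to 64.4), 34.6-fold at 2 hours and 34.5-fold at 3 days. Gzmb was 18.0-, 14.3- and 10.6-fold higher, and Prf1 19.1-, 38.2- and 18.0-fold higher. The 2-hour value of Prf1 rests on 12 UMIs in CD8 T cells (95% interval 21.7 to 74.4). Nkg7 had a smaller contrast, at 7.57-, 5.85- and 5.70-fold. Naive Gzmk had the reverse order, with NK cells at 0.349 of the CD8 T level (95% interval 0.185 to 0.640). CD8 T cells with a UMI of an NK gate gene were kept in these contrasts.

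B cells and neutrophils, which should lack these transcripts, gave the background. Gzma stood at 14.5, 18.9 and 6.92 CPM in B cells and at 16.3, 14.1 and 8.55 CPM in neutrophils, in the order naive, 2 hours, 3 days. At 2 hours 5 B cells with 3 or more of the 9 genes held 19 of the 21 UMIs, and 7 such neutrophils held 28 of the 42. Every CD8 T level of Gzma was more than 10 times the levels of these 2 classes. Other gates held more at 2 hours. Gzma had 46 of 73925 UMIs in the gate for group 2 innate lymphoid cells and 20 of 46544 in that for plasmacytoid dendritic cells. Both were above the CD8 T level, from 108 of 446876 UMIs, whereas monocytes or macrophages, with 20 of 443371, were below it. No neutrophil carried a UMI of Ifng, and in B cells and neutrophils Serpinb9 stayed between 2.67 and 6.30 CPM.

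**Figure D3:**
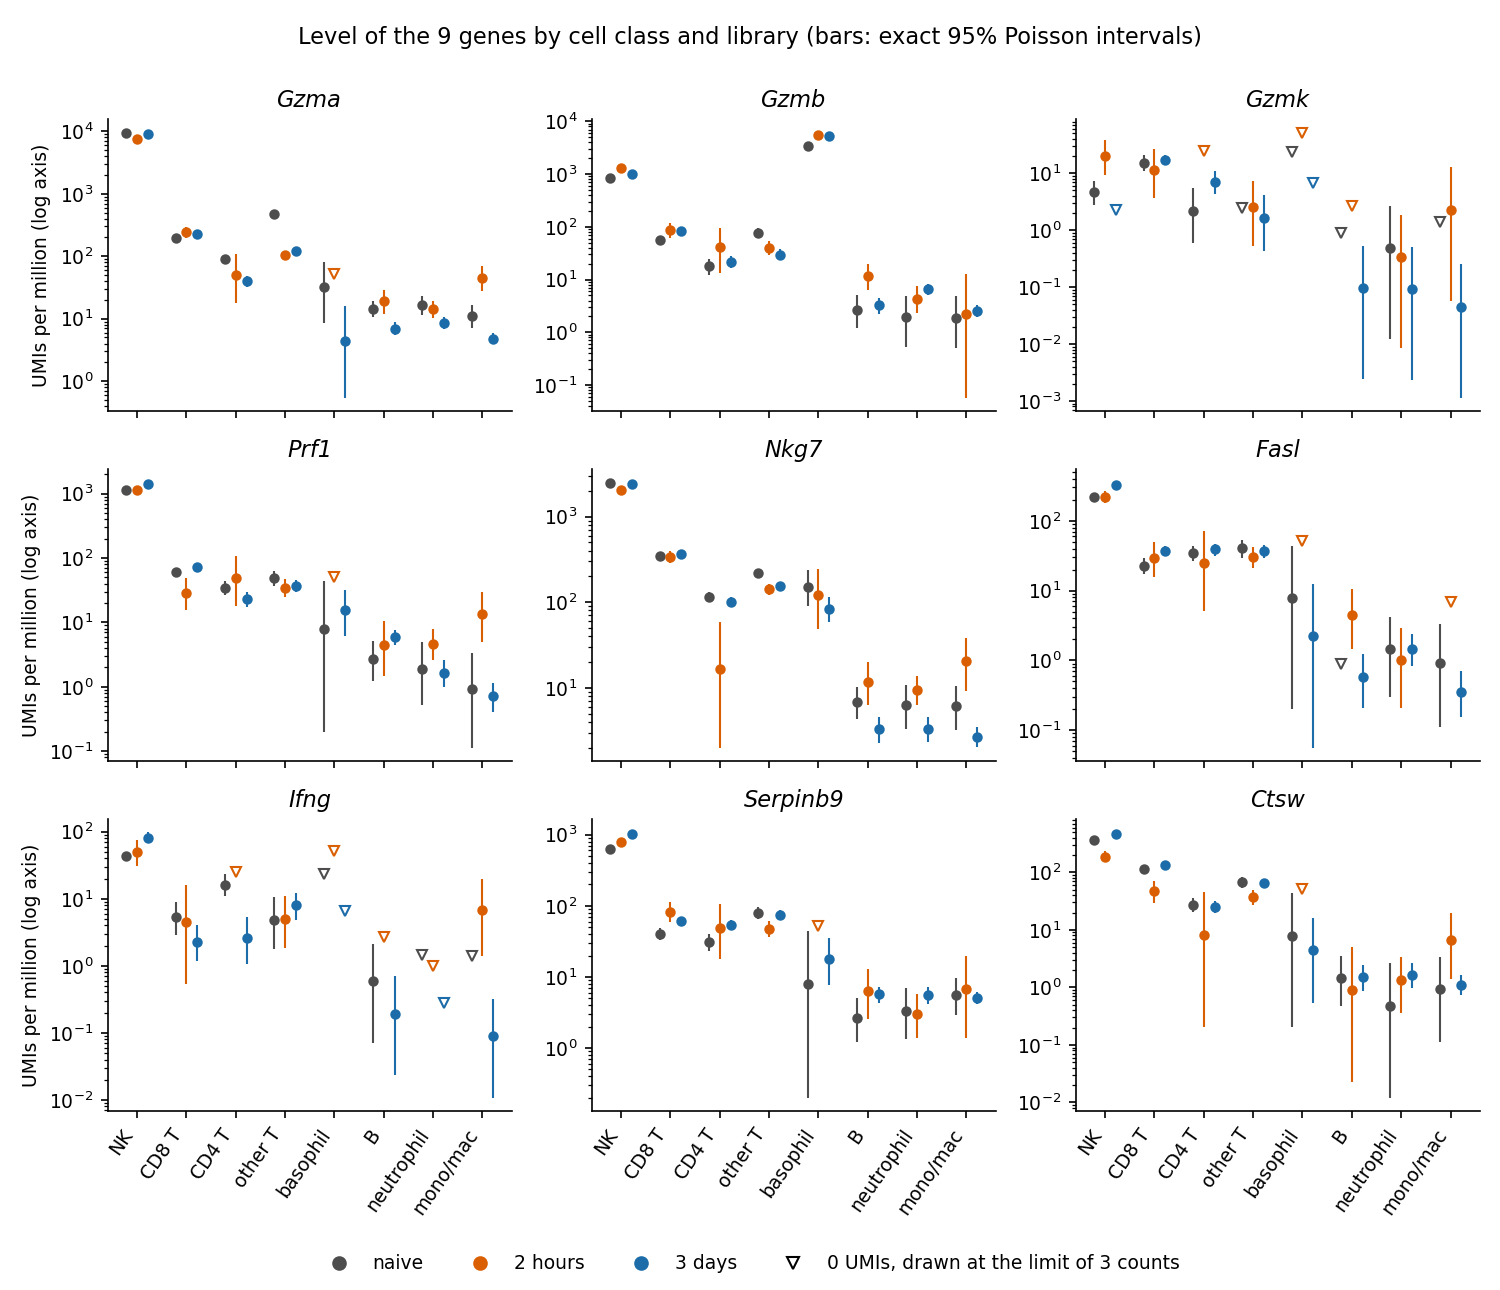
CPM (log y axis) of each of the 9 genes in 8 cell classes (x axis) of the 3 libraries, with exact 95% Poisson intervals. NK stands for restricted NK cells and basophil for the gate without Hdc. NK cells were the highest of these classes for 7 genes, the basophil gate stood above them for Gzmb, and Gzmk was low in all classes.

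The next comparison asked whether NK cells carried more or less of this machinery after reperfusion. Over the whole gate, 8 of the 9 genes were lower at 3 days than at 2 hours, and Ctsw was higher. Among restricted NK cells the picture was otherwise, with 7 genes higher at 3 days and Gzmb and Gzmk lower. Of the 8 genes with 20 or more UMIs in both sets of cells, 6 had opposite signs in the whole gate and in restricted NK cells.

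A gene was called when its level differed at least 2-fold with 20 or more UMIs over both libraries. Between 3 days and 2 hours, the whole gate gave no gene called higher (background 22.8% of 9705 genes tested) and 1, Gzmb, called lower (background 7.27%). Restricted NK cells gave 1, Ctsw, called higher (background 18.1% of 7597 genes) and none called lower (background 6.13%). The median log2 ratio of the members was -0.41 in the gate, where that of all genes tested was 0.27, and 0.37 in restricted NK cells, where that of all genes was 0.25.

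Gzma, a granzyme with trypsin-like activity, stood at 8728, 6858 and 4857 CPM in the whole gate. Its restricted NK level was 9498 CPM (95% interval 9403 to 9593) in the naive library, 7573 (7320 to 7833) at 2 hours and 9189.6 (9028 to 9353) at 3 days. By share of all UMIs, the naive and 3-day libraries were close, and the 2-hour library was lowest. The log2 ratio of 3 days to 2 hours was -0.50 in the gate and 0.28 (0.22 to 0.33) in restricted NK cells, so its sign rests on the cells with other-lineage UMIs.

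Gzmb, the granzyme that cleaves after aspartate and triggers apoptosis, had its highest NK level at 2 hours in both sets of cells. Its levels were 796, 1191 and 548 CPM in the gate and 849, 1332 (1227 to 1443) and 1012 CPM in restricted NK cells. From naive to 2 hours the log2 ratio was 0.65 (0.52 to 0.77) in restricted NK cells and 0.58 in the gate. From 2 hours to 3 days it was -0.40 (-0.54 to -0.25) in restricted NK cells and -1.12 (-1.25 to -0.99) in the gate.

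Gzmk was close to the limit of counting in NK cells. Restricted NK cells had 19 UMIs (4.66 CPM) in the naive library, 9 UMIs (20.1 CPM) at 2 hours and 0 of 1340653 UMIs at 3 days, where 3 counts would be 2.24 CPM. The whole gate had 1 UMI at 3 days. The log2 ratio of 2 hours to naive was 2.11, with a wide interval of 0.78 to 3.32.

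Prf1 stood at 1077, 1034 and 752 CPM in the gate, and at 1155, 1126 and 1434 CPM in restricted NK cells. By share of all UMIs, its naive and 2-hour levels were not distinguishable, with a log2 ratio of -0.04 (-0.17 to 0.10) in restricted NK cells. From 2 hours to 3 days the ratio was -0.46 in the gate and 0.35 (0.21 to 0.49) in restricted NK cells. Nkg7 followed Gzma, with 2447, 2069 and 2425 CPM in restricted NK cells and 2272, 1874 and 1287 CPM in the gate. Its ratio of 3 days to naive was -0.01 (-0.07 to 0.04) in restricted NK cells and -0.82 in the gate.

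Fasl and Ifng, the death ligand and the cytokine, were highest at 3 days in restricted NK cells. Fasl had levels of 216, 221 and 322 CPM there and of 201, 199 and 165 CPM in the gate. Its ratio of 3 days to naive was 0.57 (0.41 to 0.74) in restricted NK cells and -0.29 in the gate. Ifng stood at 42.9, 49.2 and 81.3 CPM in restricted NK cells. At 3 days its 109 UMIs came from 31 of 246 cells, and 1 cell alone held 36 of them (33.0%), so the ratio of 0.73 to 2 hours (0.06 to 1.46) leans on that cell. In the gate Ifng stood at 37.7, 46.4 and 36.3 CPM.

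Serpinb9, the granzyme B inhibitor, had its lowest restricted NK level in the naive library and its highest at 3 days, with 622, 782 and 1026 CPM. The log2 ratio to naive was 0.33 (0.16 to 0.49) at 2 hours and 0.72 (0.63 to 0.82) at 3 days. In the gate the levels were 578, 709 and 563 CPM, and the ratio of 3 days to naive was -0.04. Ctsw was lowest at 2 hours in restricted NK cells and in the gate. It stood at 362, 188 and 459 CPM in restricted NK cells and 337, 163 and 239 CPM in the gate, and its ratio of 3 days to 2 hours was 1.29 (0.96 to 1.64) and 0.55 (0.23 to 0.89), respectively.

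**Figure D4:**
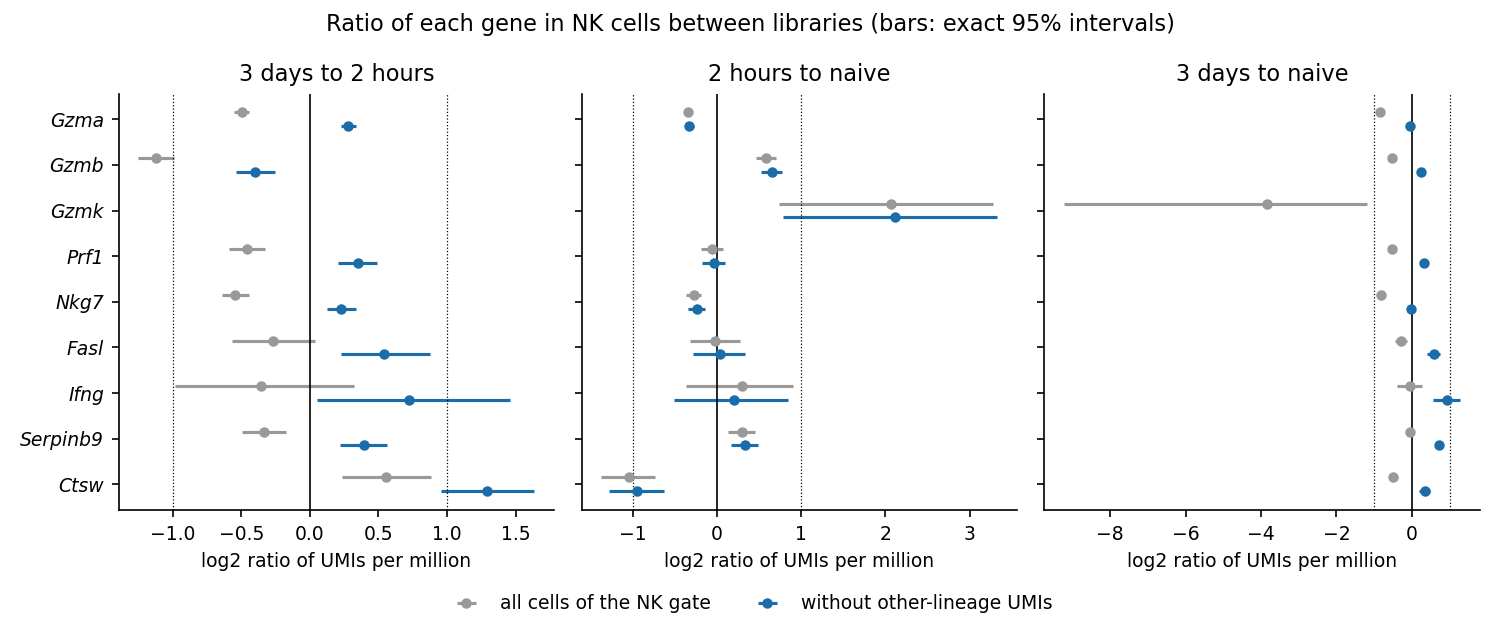
Log2 ratio of CPM in NK cells between libraries (x axis, one panel per comparison) for each gene (y axis), with exact 95% intervals, in all cells of the gate and in restricted NK cells. Dotted lines mark 2-fold, and ratios under 20 UMIs or against 0 are not drawn. Gzma at 3 days to 2 hours was -0.50 in the gate and 0.28 in restricted NK cells.

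Against the naive library, the 2-hour NK gate had 1 gene called higher, Gzmk (background 7.64% of 10446 genes), and 1 called lower, Ctsw (background 33.2%). Restricted NK cells kept the Gzmk call (background 7.65% of 9844 genes), and Ctsw at -0.95 was under the 2-fold mark, so 0 were called lower (background 32.8%). At 3 days, 1 gene, Gzmk, was called lower in the gate (background 21.1% of 11310 genes) and none higher (background 10.5%). Restricted NK cells had none called in either direction at 3 days (background 4.96% higher and 20.1% lower of 10175 genes).

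The median member ratio to naive in restricted NK cells was 0.03 at 2 hours, where all genes had -0.40, and 0.33 at 3 days, where all genes had -0.06. The naive library was written by Cell Ranger 7.1.0 and the others by 6.0.0, and no source used here says if intronic reads entered the counts. With UMIs of genes with under 10 kb of introns as denominator, every ratio in the gate shifted by -0.50 (2 hours to naive), -0.40 (3 days to naive) or 0.10 (3 days to 2 hours). In restricted NK cells the 2-hour ratio to naive was then -0.48 for Fasl, -0.31 for Ifng and -0.18 for Serpinb9, all on the other side of 0, and 0.14 for Gzmb. The 3-day ratio to naive was then -0.14 for Gzmb, -0.08 for Prf1 and -0.05 for Ctsw, also on the other side of 0, while it was 0.33 for Serpinb9, 0.18 for Fasl and 0.53 for Ifng. The ratios of Gzma and Nkg7 at 3 days and of Prf1 at 2 hours were lowered too. Their closeness to naive therefore holds for all UMIs only. Serpinb9, with 11214 intronic bases, and Gzmk, with 52912, lie outside that set of genes. This denominator leaves their own counts as they were.

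The spread among NK cells was wide in each library. Gzma in restricted NK cells ran from 34.0 UMIs per 10000 at the 10th percentile to 156 at the 90th in the naive library, from 11.4 to 156 at 2 hours and from 23.4 to 168 at 3 days. Prf1 had medians of 11.0, 9.62 and 13.3 per 10000.

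To compare shares of cells across depths, each cell was thinned to 500 UMIs, which left out 16 restricted NK cells and 43 B cells at 2 hours and none of either in the other libraries. Gzma was then found in 91.9%, 88.1% and 91.5% of restricted NK cells, Prf1 in 42.8%, 41.2% and 47.2%, and Nkg7 in 66.9%, 59.4% and 63.0%. Gzmb was found in 31.7%, 44.7% and 33.7%, highest at 2 hours as its level was. Thinning draws from all UMIs of a cell, so thinned values set against naive carry the change of software and denominator described above. Serpinb9 was found in 24.8%, 30.8% and 36.6%, in the order of its levels. Ctsw was found in 17.8%, 8.25% and 17.5%, lowest at 2 hours like its level. Over the whole gate Gzma was found in 86.7%, 86.4% and 64.0% and Gzmb in 29.7%, 42.7% and 24.1%. In thinned B cells Gzma was found in 0.560%, 0.168% and 0.161%. The median depths before thinning were 7543, 797 and 5043 UMIs in restricted NK cells and 6179.5, 766 and 5008 UMIs in B cells. Unthinned shares for Gzma in restricted NK cells were 97.8%, 92.6% and 95.1%, and those for Gzmb were 88.1%, 54.2% and 85.4%.

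The share carrying a second member was read in thinned cells with Gzma or Gzmb and in all cells of the class. Gzma was found in 225 of the 246 restricted NK cells at 3 days, so its 2 shares were bound to lie close. At 3 days 36.4% of thinned restricted NK cells with Gzma also had Gzmb, beside 33.7% of all restricted NK cells. Of the 83 restricted NK cells with Gzmb, 82 also had Gzma. Prf1 was found in 55.4% of those with Gzmb and in 47.2% of all. Among CD8 T cells, 7 of the 27 with Gzma at 3 days (25.9%) also had Gzmb, beside 3.35% of all 507. Gzma was rare there, so this contrast cannot be set against that of NK cells. A thinned restricted NK cell held a mean of 2.90, 2.86 and 3.02 of the 9 genes, and a B cell 0.0168, 0.0126 and 0.0118.

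**Figure D5:**
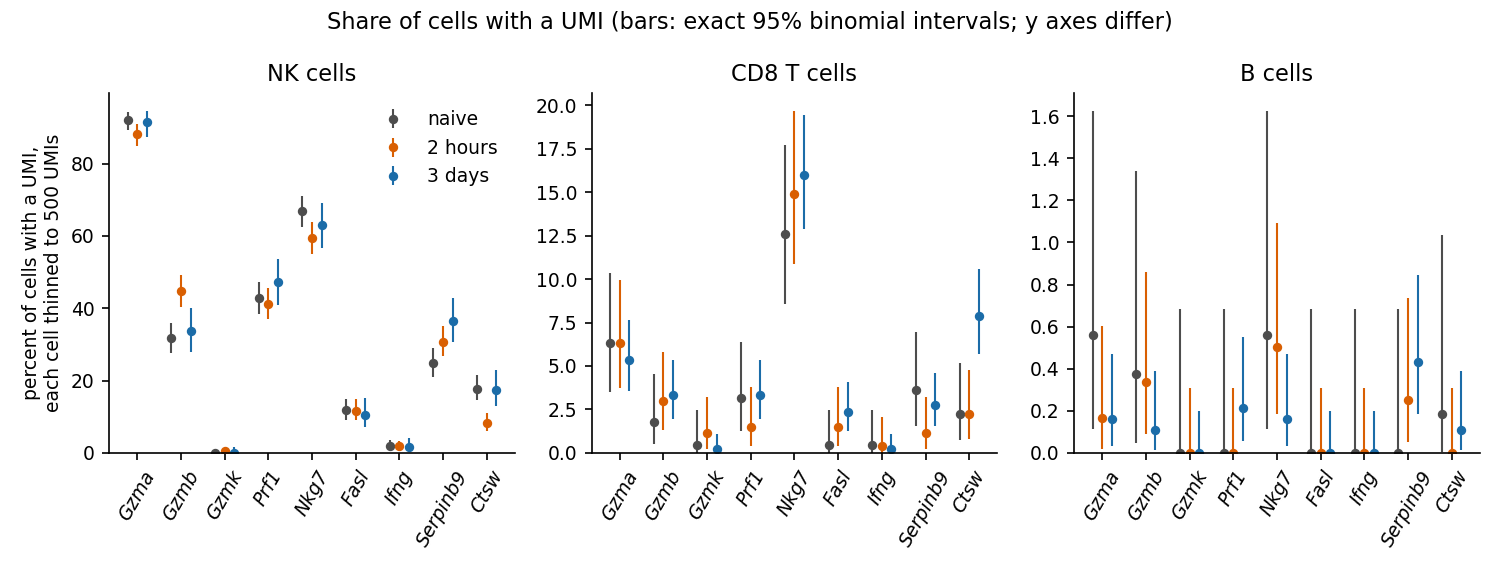
Percent of cells with at least 1 UMI of each gene (y axis, scale differs by panel) after thinning every cell to 500 UMIs, by library, with exact 95% binomial intervals. Gzmb in restricted NK cells stood at 44.7% at 2 hours, above 31.7% in the naive library and 33.7% at 3 days.

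CD8 T cells, the other classical killers, were compared next. They numbered 222, 269 and 507, with median UMIs of 11379.5, 1491 and 9744. This class did not exclude the NK gate genes. A UMI of these was found in 24 naive cells (10.8%), 6 at 2 hours (2.23%) and 80 at 3 days (15.8%). With any Cd3 UMI and no NK gate UMI as the gate (204, 421 and 443 cells), 16 CD8 T levels left their interval and 11 did not. Gzma stood at 194 CPM (178 to 212) in the naive library, 242 (198 to 292) at 2 hours and 229 (216 to 242) at 3 days. Gzmb stood at 56.9, 87.3 and 82.0 CPM and Nkg7 at 348, 338 and 370 CPM. For Nkg7 the 3 intervals overlapped, and the log2 ratio of 3 days to naive was 0.09 (-0.02 to 0.20).

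Prf1 and Ctsw were lowest at 2 hours in CD8 T cells. Prf1 stood at 61.1, 29.1 and 73.0 CPM, on 161, 13 and 382 UMIs, and its ratio of 3 days to 2 hours was 1.33 (0.54 to 2.25). Ctsw stood at 115, 47.0 and 137 CPM, with a ratio of 3 days to 2 hours of 1.54 (0.92 to 2.24), so its 2-hour low appeared in NK and CD8 T cells alike. Serpinb9 was higher at 2 hours than in the naive library, with 40.6, 82.8 and 60.4 CPM and a ratio of 1.03 (0.45 to 1.58). Fasl stood at 22.4, 29.1 and 37.4 CPM.

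Gzmk, which marks early effector and memory CD8 T cells, stood at 15.2, 11.2 and 17.0 CPM on 40, 5 and 89 UMIs, with no difference beyond counting error. Ifng was hardly counted, with 14, 2 and 12 UMIs, and 12 of the 14 naive UMIs lay in 1 cell. Without T cells with other-lineage UMIs (196, 254 and 335 left), the ratios of 3 days to naive were 0.70 for Gzma, 1.02 for Gzmb and 1.15 for Fasl, against 0.24, 0.53 and 0.74 in all CD8 T cells. These values carry the same change of software and denominator as those of NK cells.

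CD4 T cells, with 193, 78 and 313 cells, carried less. Gzma stood at 90.3, 49.4 and 39.6 CPM, but 1 cell held 100 of the 167 naive UMIs and 1 cell held 64 of the 106 at 3 days. Fasl and Ifng were not lower in CD4 than in CD8 T cells of the naive library. Fasl stood at 34.6, 24.7 and 38.9 CPM in CD4 T cells, and after removal of cells with other-lineage UMIs the naive CD8 T level was 0.518 of the CD4 T level (0.337 to 0.790), whereas at 3 days the ratio was 1.26 (0.907 to 1.77). Ifng stood at 16.2 CPM in naive CD4 T cells, where 1 cell held 12 of the 30 UMIs, and at 2.62 CPM at 3 days. At 2 hours CD4 T cells had 0 Ifng UMIs of 121489, where 3 counts would be 24.7 CPM, so that 0 shows no fall. Serpinb9 stood at 30.8, 49.4 and 54.5 CPM in CD4 T cells.

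Among T cells outside both classes, those with a UMI of Trdc, Tcrg-C1 or Trdv4, genes of γδ T cells, numbered 32, 22 and 64. Serpinb9 stood at 103 CPM in the naive library and 199 CPM at 3 days, with no UMI at 2 hours. These cells had only 34873 UMIs at 2 hours, too few to set that 0 against the naive level. Their naive Gzma level of 541 CPM came from 1 cell with 176 of 179 UMIs.

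Outside lymphocytes, Gzmb was high in the basophil or mast gate. The list of basophil and mast cell genes included Hdc, and its gate held 306 cells at 2 hours, against 21 naive cells and 114 at 3 days. Without Hdc, the gate (Mcpt8, Cpa3, Gata2, Cd200r3 and Ms4a2, chosen after the data had been seen) held 16, 46 and 83 cells. The mast cell protease genes Cma1 and Tpsb2 had no UMI in them. The basophil protease gene Mcpt8 stood at 1048, 824 and 2045 CPM. It is a gate gene, so its presence was set by the selection and does not name the cells.

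Gzmb stood at 3468 CPM (3150 to 3809) in these cells in the naive library, 5493 (4908 to 6129) at 2 hours and 5309 (5098 to 5526) at 3 days. This was 4.08-, 4.12- and 5.24-fold above restricted NK cells of the same libraries. It came from 15 of 16, 36 of 46 and 68 of 83 cells, although 1 naive cell held 155 of 437 UMIs (35.5%). The log2 ratio to naive was 0.66 at 2 hours and 0.61 (0.47 to 0.76) at 3 days, and -0.05 between 3 days and 2 hours. Both ratios to naive rest on 16 naive cells and carry the change of software and denominator described for NK cells. With Hdc in the list the levels were 4085, 1560 and 5368 CPM.

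The rest of the machinery was not found at like levels in these cells. Gzma had 4, 0 and 2 UMIs and Prf1 1, 0 and 7, all 7 in 1 cell. Nkg7 stood at 151, 120 and 82.3 CPM, above the 6.81, 11.7 and 3.27 CPM of B cells. Gzmc, a close relative of Gzmb in the same gene cluster, stood at 960, 601 and 612 CPM. How reads matching both genes were handled is not given here, so the division between the granzymes is uncertain.

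Serpinb9 had other sources too. The gate for conventional dendritic cells gave 754, 55.8 and 110 CPM, on 9, 8 and 15 cells, and 1 naive cell held 32 of the 76 UMIs. In the endothelial gate its 213 CPM at 3 days came mainly from 1 cell, with 57 of 79 UMIs.

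Other genes of the killing pathway were read in restricted NK cells from lists chosen by function, with the shares of all genes called given beside the counts. Among 12 genes of granule making and release, 1 was called higher (Ctsh, background 18.1%) and 1 lower (Rab27a, background 6.13%) at 3 days than at 2 hours. The whole gate had 4 higher (Ctsc, Ctsh, Lyst and Lamp1, background 22.8%) and Rab27a lower (background 7.27%). Srgn, the proteoglycan core of the granule, stood at 819, 577 and 816 CPM. Of the other granzymes, Gzmm alone reached 20 UMIs in any comparison.

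Of 9 other ligands and secreted factors, 5 were tested between 3 days and 2 hours. Of these, 1 was called higher (Xcl1, background 18.1%) and 2 lower (Ccl4 and Ccl5, background 6.13%). Ccl5, a chemokine stored in killer cells, stood at 13751, 29172 and 12082 CPM, and Ccl4 at 266, 746 and 362 CPM. Both were highest at 2 hours, as Gzmb was, where Gzma, Nkg7 and Ctsw were lowest. Among 4 protease inhibitors tested, Serpinb9b, a close relative of Serpinb9, was called lower at 3 days than at 2 hours (background 6.13%). It stood at 108, 284 and 113 CPM.

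Of 8 transcription factors, 3 (Tbx21, Zeb2 and Stat4) were called lower than naive at 2 hours (background 32.8%) and also at 3 days (background 20.1%). Bhlhe40 was called higher than naive at 2 hours (background 7.65%), and Zeb2 higher at 3 days than at 2 hours (background 18.1%). Tbx21, the T-box factor of type 1 lymphocytes, stood at 361, 121 and 154 CPM. Id2 stood at 566, 720 and 835 CPM and Runx3 at 442, 290 and 519 CPM. Of 11 activating and cytokine receptors, 7 were called lower at 2 hours than naive (background 32.8%) and 2 at 3 days (background 20.1%), where the whole gate had 5 (background 21.1%). Il12rb2, a chain of the interleukin-12 receptor, stood at 908, 194 and 192 CPM, and Il2rb at 1337, 1124 and 1680 CPM. Of 7 receptors and targets in the attacked cell, none was called between 3 days and 2 hours (background 18.1% higher and 6.13% lower). Against naive, 2 (Ifngr2 and Fadd) were called higher at 2 hours (background 7.65%) and 3 (Fas, Ifngr2 and Fadd) at 3 days (background 4.96%). Counts against naive carry the change of Cell Ranger version described above.

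The genes whose pattern was most like the members' mean were named over 26 sums of a class in a library with at least 50 cells. Pearson's r on log2(CPM + 10) was 0.955 for AW112010, 0.948 for Gm14029, 0.943 for Kcnj8 and 0.940 for Il2rb. Klrc1 had 0.940, Klrg1 0.939, Klrk1 0.930, Serpinb6b and Eomes 0.926, and Klrc2 0.925. These points share libraries, and the restricted NK sums weigh heavily in them. Among the members themselves Gzma went closest with Prf1 (0.97), and Nkg7 with Ctsw (0.96), whereas Gzma had 0.51 with Gzmb and 0.48 with Gzmk.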

How the data were processed

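Single cells of 3 libraries were measured by droplet RNA-Seq. The deposited values were raw UMI counts, made by the authors with Cell Ranger and left unfiltered beyond its own cell calling. Per the file headers the naive library came from Cell Ranger 7.1.0 and the others from 6.0.0, whereas the submitters' notes name Cell Ranger 6, Seurat 4 and mm10. The methods give a 3′ kit and the labels a 5′ and a 3′ kit, so the chemistry is not settled here. Libraries held 28538529, 10749100 and 70750470 UMIs in 2921, 10328 and 9016 cells (naive, 2 hours, 3 days).

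As in the methods, a kept cell had over 200 and below 6000 genes detected, less than 10% of its UMIs on mitochondrial genes, and a total below 25000 UMIs. Classes were set cell by cell from marker UMIs: NK and T gates as stated with the results, and all other cells by the list with the most UMIs, at least 2 and at least 2 times the next. Doublets were called with Scrublet (scanpy 1.11.5) and removed only in an alternative. UMIs were summed per class and library and divided by all UMIs of the class. Ratios were called at 2-fold with at least 20 UMIs. Shares carried exact binomial intervals, and thinning was to 500 UMIs, with 1000 as a check. A count of 0 was given a limit of 3 counts. Python 3.11.15, numpy 2.4.6 and scipy 1.17.1 were used.

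The ratio and interval steps were tested on simulated data. Alternatives were other NK gates, cell filters, denominators, a mean over cells, thinning and no minimum of UMIs. The named genes were the 9 members, at most 4 per list of related genes (those with the most UMIs in NK cells, and genes called, where few), and the 10 genes most like the members. Members and lists were chosen with earlier results of these data known, and the gate without other-lineage UMIs, the T cell counterpart and the basophil list without Hdc followed a look at the data. Antibody counts of the transplant libraries entered no comparison. No protein sequences were used here. A split of CD8 T cells by marker genes is not reported here.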

Additional observations from a re-analysis of the deposited data

Results flagged for a closer look

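Some ratios had opposite signs, each with an interval on 1 side of 0, in NK cells and in another class of the same libraries, and in each case the difference was not tested. From 2 hours to 3 days, Prf1 had a log2 ratio of -0.46 in the NK gate and 1.33 in CD8 T cells. In restricted NK cells it was 0.35, so the opposition depends on gated cells with UMIs of other lineages.

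From naive to 2 hours, Gzma had -0.35 in the NK gate and 0.32 in CD8 T cells, and restricted NK cells gave -0.33. From naive to 3 days, Gzma had -0.85 and 0.24, Gzmb -0.54 and 0.53, Fasl -0.29 and 0.74, and Ctsw -0.49 and 0.25 in the NK gate and CD8 T cells. Gzmb also had 0.61 in the basophil gate without Hdc. All ratios to naive here carry the change of Cell Ranger version described above. In restricted NK cells these 3-day ratios were -0.05 for Gzma, 0.25 for Gzmb, 0.57 for Fasl and 0.34 for Ctsw. Among these restricted NK ratios, Gzma alone was below 0.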

How the results depend on the processing

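Counts of called members in NK cells moved with the gate. Shares of all genes called are given with the results for the whole gate and restricted NK cells. For the other alternatives they are not given here, so those counts cannot be set against other genes. The denominator of genes under 10 kb of introns shifted every whole-gate ratio of 3 days to naive by -0.40. Members higher at 3 days than at 2 hours were 0 in the whole gate, 1 with at least 2 gate UMIs, without cells carrying 2 UMIs of any other list or of the 4 lists, and with these 4 lists and either the denominator of genes under 10 kb of introns or doublets removed, and 2 with the 4 lists and at least 2 gate UMIs. Members lower at 3 days than at 2 hours were 1, but 0 with at least 2 gate UMIs, as a mean over cells, and without cells of any other list or of the 4 lists (and its 3 combinations), and 2 with no minimum of UMIs. Members higher at 2 hours than naive were 1, but 0 without cells of any other list and 0 after thinning. Members lower at 2 hours than naive were 1, but 0 with no cell filter, without doublets, as a mean over cells, without cells of the 4 lists, and with doublets removed too. Members higher at 3 days than naive were 0, but 1 without cells of any other list. Members lower at 3 days than naive were 1, but 0 without Cd3d or Cd3g UMIs, without cells of any other list or of the 4 lists (and its 3 combinations) and after thinning, and 3 with the denominator of genes under 10 kb of introns. The cause was not tested, except that removing cells left 192, 492 and 162 NK cells under the strictest list. Over single-gene values, 213 stayed within the interval of the reported whole-gate or T cell value and 287 did not. No paired analysis was possible because each condition had 1 library. At 2 hours restricted NK cells had 9 UMIs of Gzmk, 22 of Ifng, 84 of Ctsw and 99 of Fasl.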

Other observations

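The restricted NK cells differed between libraries in genes outside the killing machinery. At least 2 UMIs of cycling genes (Mki67, Top2a, Birc5, Ccnb2, Cdk1 and Ube2c) were found in 24 restricted NK cells of the naive library, in 0 of 513 at 2 hours and in 0 of 246 at 3 days, and the 2-hour count is of cells with few UMIs. Cma1, known as a mast cell protease gene, stood at 248, 351 and 389 CPM in restricted NK cells and at 0 UMIs in the basophil gate. These genes were singled out after their values had been seen.

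The transplant libraries also held 277 antibody features. The antibody to CD178, the protein of Fasl, had 0 of 15269 antibody UMIs in the NK gate at 2 hours and 1 of 40738 at 3 days, although the Fasl transcript was counted in the same cells. Over all kept cells this antibody had only 33 of 877259 antibody UMIs at 2 hours and 97 of 1054907 at 3 days. Its counts in NK cells therefore cannot be read as absence of the protein. No control antibody level was set for the CD178 antibody here.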
